A study of Mus musculus with 12 samples.

Results

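Respiratory complex I is the NADH:ubiquinone oxidoreductase of the inner mitochondrial membrane. Transcripts of its nuclear-encoded subunits were examined in mouse marrow cells sorted for red cell precursors. The members were all genes whose symbol in the array's annotation begins with Ndufa, Ndufb, Ndufc, Ndufs or Ndufv, without the Ndufaf assembly factors. This name rule uses no measured value, and it gave 36 of 19057 annotated genes, with 55 of 45281 probes. A gene was tested when a probe of it lay above the background limit on at least 6 of 12 arrays whatever their genotype, and 35 members passed, among 9388 genes in all. All 35 were above the limit on all 12 arrays. The exception was Ndufs1, the large iron-sulfur subunit of the NADH-oxidising arm, whose single probe was above the limit on 0 arrays, so that no level is given for it. The 7 mitochondrially encoded ND subunits were searched by their mt-Nd symbols. The array's annotation held 0 of these symbols, so the ND subunits were not analysed here.

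Bone marrow cells sorted by FACS for Ter119, an erythroid surface antigen, and for high CD71, the transferrin receptor, were compared between wild type littermates and mice with the cyclin E (T74A T393A) knock-in, all on strain background 129. The substitutions remove phosphorylation sites through which the ubiquitin ligase subunit Fbw7 recognises cyclin E, an activator of Cdk2. The labels give no age, sex or zygosity, and no treatment. Each of 12 Illumina bead arrays, 6 for each genotype, was read in 1 colour, and adjacent array numbers were taken as duplicates of 1 sample, which left 3 samples for each genotype. Duplicates differed by an SD of 0.0933 to 0.139 over all genes on the log2 scale, and other arrays of the same genotype by 0.2995 to 0.447. Nothing in the labels says whether samples came from separate animals, so a p-value here measures no more than how far these samples scatter, and that scatter may be technical. In bulk RNA, fewer cells of a type and less RNA per cell cannot be told apart.

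Complex I takes electrons from NADH, passes them along iron-sulfur clusters to ubiquinone, and couples this to proton pumping. Its N module holds the NADH site, its Q module reduces ubiquinone, and its P module is the membrane arm, with a proximal and a distal part. Core subunits carry the chemistry, and accessory subunits surround and stabilise them. Erythroblasts use mitochondria for the first and last steps of heme synthesis and for iron-sulfur cluster assembly, and they clear their mitochondria when they mature to red cells.

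The sort label was checked against markers. Of 10 erythroblast markers, 7 were measured (Alas2, Epor, Gata1, Hba-a1, Klf1, Slc4a1 and Tfrc), and each was above the limit on all 12 arrays. Their list mean was 12.42 ± 0.27 in the wild type and 12.60 ± 0.081 in the knock-in samples (log2 intensity, SD, n = 3 each). All 9 neutrophil granule markers were above the limit on 12 arrays too, with a list mean of 13.73 ± 0.29 in the wild type and 13.77 ± 0.32 in the knock-in samples (log2 intensity, SD, n = 3 each). The neutrophil list was thus the brighter in both genotypes, though intensities of different probes do not give shares of cells. Markers of B lineage cells and of macrophages were also detected, and their values stand beside the result below. The deposited intensities of the knock-in arrays were the brighter ones within each block of 4 adjacent arrays: array means ran from 178.3 to 247.2 in knock-in and from 134.5 to 198.6 in wild type arrays. Between 15988 and 18227 probes lay above the limit on each array, and the number of arrays limits the precision.

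The promoters of the members give a view that is independent of the arrays. Windows of 300 bases, from 250 before to 50 after the annotated start, were taken from RefSeq (GRCm38.p6) and found for 32 of the 36 members. They were searched on both strands for letters bound by 4 factors known to act on respiratory chain genes. These were GCGCATGC for NRF1, CCGGAAG for ETS factors such as GABPA, AAGATGGCG for YY1 and TCAAGGTCA for the estrogen-related receptors. The YY1 letters stood in 5 members, 15.6%, against 1.64% of the 27025 genes with a window. The NRF1 letters stood in 3 members (9.38%, against 3.05%), the ETS letters in 4 (12.5%, against 9.93%), and the letters of the estrogen-related receptors in 0 (against 0.466%). The member windows had a median GC content of 59.1%, against 52.7% for all windows, and these shares were not adjusted for it. In all 5 members with the YY1 letters these lay on the coding strand, 23 to 36 bases after the start, and they are shown in capitals in the 30 bases around each match. The letters contain ATG, the start codon, so they can also belong to the beginning of a reading frame.

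Ndufa9, chr6:126849097-126849126, minus strand: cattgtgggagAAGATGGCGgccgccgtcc
Ndufc1, chr3:51408915-51408944, minus strand: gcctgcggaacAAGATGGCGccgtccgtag
Ndufs4, chr13:114388045-114388074, minus strand: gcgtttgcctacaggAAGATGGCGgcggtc
Ndufs6, chr13:73328433-73328462, minus strand: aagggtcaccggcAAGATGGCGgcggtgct
Ndufs7, chr10:80249462-80249491, plus strand: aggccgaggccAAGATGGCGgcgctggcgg

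Ndufa11 held the NRF1 letters on both strands, overlapping, 60 and 58 bases before its start. They are shown because no other member held the NRF1 letters on both strands, in the stretch chr17:56717687-56717726, plus strand, from 75 to 36 bases before the start.

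Ndufa11: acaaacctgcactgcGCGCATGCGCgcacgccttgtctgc

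Ndufs3, a core subunit described below, was the member with more than 1 ETS match, 27 bases before the start and 2 bases after it. Its whole window, chr2:90904672-90904971, minus strand, follows with both matches in capitals.

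Ndufs3: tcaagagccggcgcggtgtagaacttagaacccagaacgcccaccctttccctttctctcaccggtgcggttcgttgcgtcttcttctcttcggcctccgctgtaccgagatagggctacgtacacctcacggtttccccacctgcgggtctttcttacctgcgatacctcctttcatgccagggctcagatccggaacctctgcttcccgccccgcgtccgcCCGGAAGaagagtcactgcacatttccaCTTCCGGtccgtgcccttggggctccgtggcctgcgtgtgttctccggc

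A match is a description of letters and not a site. The 5 members with the YY1 letters had a median difference between the genotypes of -0.24 on the log2 scale, and the 27 measured members with a window but without them had -0.20. For the NRF1 letters the medians were -0.17 with and -0.21 without them, and for the ETS letters -0.18 with and -0.21 without. These differences between carriers and other members were not tested.

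With quantile normalization, which gives all arrays the same distribution of intensities, 34 of 35 members were lower in the knock-in samples and none of the 35 passed the test over all genes. The median difference was -0.21 on the log2 scale (-13.4%), and the differences ranged from -0.87 for Ndufb10 to 0.31 for Ndufb11. Of all genes tested, 58.4% were lower, with a median of -0.029. The smallest limma adjusted p among the members was 0.527, and 0.0852% of all genes passed at 0.05. At an unadjusted limma p under 0.05, 3 members were lower (8.57%, against 3.09% of all genes) and 0 were higher (against 5.56%). For 4 members all 3 knock-in samples lay below all 3 wild type samples (11.4%, against 6.47% of genes), and for 0 members they lay above (against 7.23%). For most members the genotypes therefore overlapped. For 13 members the difference was smaller than the SD between the wild type samples.

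**Figure D1:**
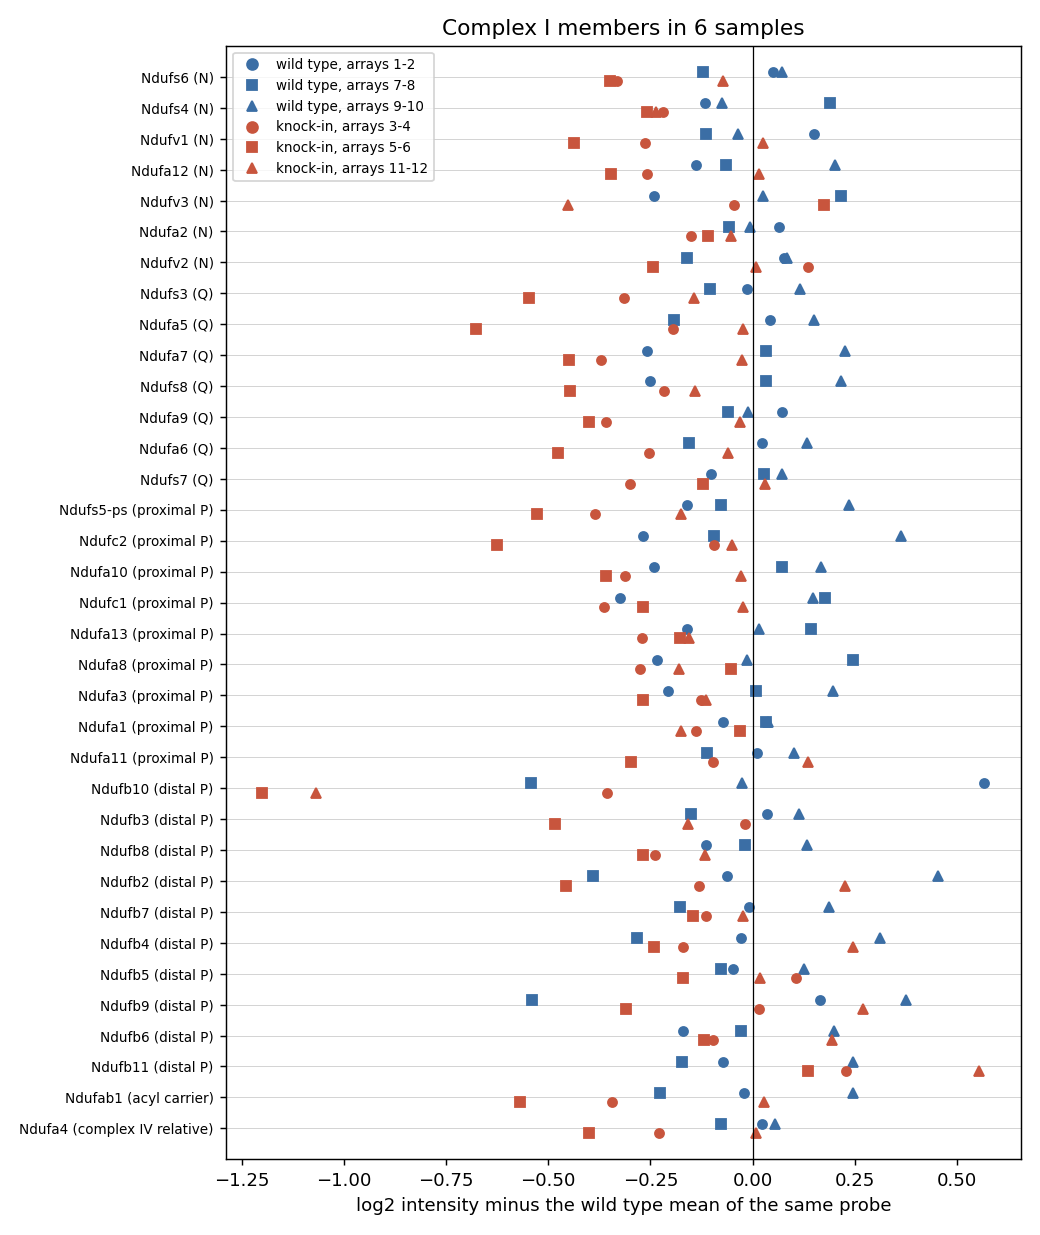
Log2 intensity of each of the 35 members in each of the 6 samples, less the wild type mean of the same probe, with modules in brackets. Blue points are wild type and red points knock-in samples, and point shape marks the block of 4 arrays. Most red points lie left of 0, and the red square (arrays 5 and 6) is the lowest knock-in point for most members of the Q module.

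The mean over the 35 members was 9.91 in the wild type sample of arrays 1 and 2, 9.89 in that of arrays 7 and 8, and 10.11 in that of arrays 9 and 10. In the knock-in samples it was 9.78 (arrays 3 and 4), 9.64 (arrays 5 and 6) and 9.92 (arrays 11 and 12). The highest knock-in sample thus lay above 2 of the 3 wild type samples. The 3 blocks of 4 adjacent arrays hold 1 sample of each genotype, and within them the median member differed by -0.11 (arrays 1 to 4), -0.30 (arrays 5 to 8) and -0.17 (arrays 9 to 12). Lower in the knock-in sample of its block were 27, 31 and 32 members, and 22 members were lower in all 3 blocks (62.9%, against 23.5% of all genes). Without the knock-in sample of arrays 5 and 6 the median difference was -0.13 and 27 members were lower. With the blocks as a term in limma, 1 member passed, Ndufb10 (limma adjusted p = 0.0493), where 0.937% of all genes did. With the 12 arrays taken as 12 samples, which counts duplicates as independent, 3 members passed (8.57%), where 9.16% of all genes did.

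The direction depended on the scaling. Under 75th percentile scaling the median member differed by -0.037 and 22 of 35 were lower. Under median scaling over all probes it differed by 0.079 and 5 were lower, and with no scaling it differed by 0.097 and 4 were lower. Scaling to the median of the probes tested gave -0.073 with 25 lower, cyclic loess -0.16 with 30 lower, quantile normalization without background correction -0.21 with 34 lower, and the authors' processed values -0.21 with 34 lower. Of the 35 members, 4 were lower under all 8 scalings (Ndufb10, Ndufs3, Ndufs5-ps and Ndufa5), 1 was higher under all 8 (Ndufb11), and 30 changed direction. For Ndufb10 this holds for its brighter probe, and its other probe was higher with quantile normalization (0.69). The difference of Ndufa5 was as small as -0.0098 with no scaling. None passed over all genes under any of the 8.

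The members were also set against the genes whose mean level lay between the lower and upper quartile of the members' own levels, 924 genes under quantile normalization. Those genes themselves moved with the scaling, from a median of -0.044 under quantile normalization to 0.13 under 75th percentile scaling, 0.25 under median scaling and 0.27 with no scaling. The median member lay below theirs by nearly the same amount each time, between -0.16 and -0.17 under all 8 scalings, and 30 or 31 of the 35 members were below it. Relative to the median of all genes tested, which include many dimmer ones, the members lay between -0.18 and 0.0098. Each scaling shifts genes of like level on an array by like amounts, so the near constancy is largely built in and is no check of the result. All 8 scalings use the same 6 samples, so they are not separate observations, and the members are not independent replicates.

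**Figure D2:**
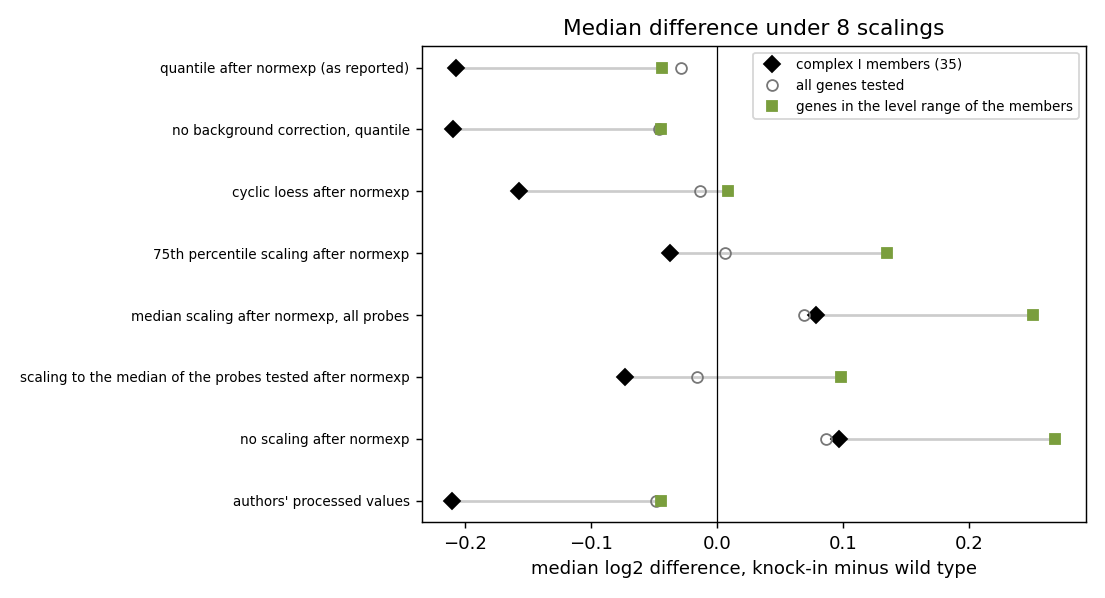
Median log2 difference (knock-in minus wild type) under 8 scalings, for the 35 members (black diamonds), all genes tested (open circles) and the genes in the level range of the members (green squares). The black diamond moves across 0 with the scaling, while the grey line joining it to the green square keeps nearly the same length.

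Of the core subunits, 5 were measured, and all 5 were lower with quantile normalization. Ndufs3, which helps hold the iron-sulfur chain of the Q module, was 9.52, 9.43 and 9.65 in the wild type samples of arrays 1 and 2, 7 and 8, and 9 and 10. In the knock-in samples of arrays 3 and 4, 5 and 6, and 11 and 12 it was 9.22, 8.99 and 9.39. All knock-in samples lay below all wild type samples. The difference was -0.33 (95% interval -0.65 to -0.018), or -20.7%, with a limma adjusted p of 0.548, and it ranged from -0.36 to -0.044 over the 8 scalings. Ndufs8, a Q module subunit that carries iron-sulfur clusters, was 10.17, 10.45 and 10.64 in the wild type and 10.20, 9.97 and 10.28 in the knock-in samples. These overlapped, with a difference of -0.27 (-0.63 to 0.096, limma adjusted p = 0.749). Ndufs7, which carries the terminal iron-sulfur cluster next to ubiquinone, was 10.66, 10.79 and 10.84 in the wild type and 10.47, 10.65 and 10.80 in the knock-in samples. It also overlapped, with a difference of -0.13 (-0.41 to 0.15, limma adjusted p = 0.914), and it was higher in the knock-in samples under 4 of the 8 scalings.

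In the N module, Ndufv1, which binds NADH and the flavin, was 11.25, 10.98 and 11.06 in the wild type and 10.83, 10.66 and 11.12 in the knock-in samples. The knock-in sample of arrays 11 and 12 lay above 2 wild type samples, and the difference was -0.23 (-0.58 to 0.13, limma adjusted p = 0.797). Ndufv2, its partner with an iron-sulfur cluster of its own, was 10.38, 10.14 and 10.39 in the wild type and 10.44, 10.06 and 10.31 in the knock-in samples. The genotypes could hardly be distinguished, with a difference of -0.033 (-0.35 to 0.29, limma adjusted p = 0.995), and Ndufv2 was higher under 5 of the 8 scalings.

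Among the accessory subunits of the N module, the smallest p-values belonged to Ndufs4 and Ndufs6. Ndufs4, needed for a stable N module and a known cause of Leigh syndrome in people, was 9.65, 9.95 and 9.69 in the wild type and 9.55, 9.51 and 9.53 in the knock-in samples. All knock-in samples lay below all wild type samples on this probe, by -0.24 (-0.50 to 0.026, limma adjusted p = 0.646). The other 3 Ndufs4 probes differed by -0.13, -0.16 and 0.090, so 1 of the 4 went the other way. Ndufs6, a zinc-binding subunit, was 11.61, 11.44 and 11.64 in the wild type and 11.23, 11.22 and 11.49 in the knock-in samples. The difference was -0.25 (-0.53 to 0.029, limma adjusted p = 0.646). The knock-in sample of arrays 11 and 12 lay above the wild type sample of arrays 7 and 8. The remaining N module subunits, Ndufa2, Ndufa12 and Ndufv3, differed by -0.10, -0.20 and -0.11. The module had a median of -0.20.

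The Q module had the lowest median of the modules with more than 1 member, -0.27, and 6 of its 7 members were lower in all 3 blocks. Its accessory subunit Ndufa9, which binds a nucleotide cofactor at the junction with the membrane arm, was 10.06, 9.93 and 9.97 in the wild type and 9.63, 9.58 and 9.95 in the knock-in samples. The difference was -0.26 (-0.56 to 0.037, limma adjusted p = 0.651). Ndufa6, which belongs to a family of small proteins that bind the acyl carrier, was 11.08, 10.90 and 11.19 in the wild type and 10.80, 10.58 and 10.99 in the knock-in samples. The difference was -0.26 (-0.60 to 0.073, limma adjusted p = 0.720). In both genes the sample of arrays 11 and 12 was the highest of the knock-in samples and overlapped the wild type range. Ndufa5 and Ndufa7 differed by -0.30 and -0.28. Differences between the modules were not tested.

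All 9 measured members of the proximal membrane arm were lower, with a median of -0.20. The probe annotated to Ndufs5-ps, which the RefSeq table lists as a transcribed pseudogene of the subunit Ndufs5, was 9.28, 9.36 and 9.67 in the wild type and 9.05, 8.91 and 9.26 in the knock-in samples. The samples did not overlap, and the difference was -0.36 (-0.72 to -0.0073, limma adjusted p = 0.568). Signal from Ndufs5 itself, the parent gene, cannot be told apart from it here. Ndufa13, also known as Grim19, was 12.01, 12.32 and 12.19 in the wild type and 11.90, 11.99 and 12.02 in the knock-in samples. Its knock-in sample of arrays 11 and 12 was a little above the wild type sample of arrays 1 and 2, and the difference was -0.20 (-0.46 to 0.061, limma adjusted p = 0.733). The other 7 lay between -0.26 (Ndufc2) and -0.086 (Ndufa11).

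The distal membrane arm was the most mixed module, with a median of -0.075 over 10 members and a range from -0.87 to 0.31. Ndufb10, which contains cysteines that form disulfide bridges after import into the intermembrane space, was 9.27, 8.16 and 8.68 in the wild type and 8.35, 7.51 and 7.64 in the knock-in samples. The difference was -0.87 (-1.68 to -0.069, limma adjusted p = 0.527), and the groups overlapped, since the wild type sample of arrays 7 and 8 lay below the knock-in sample of arrays 3 and 4. Within each block the knock-in sample was the lower one. The second Ndufb10 probe, annotated to the same transcript, went the other way: 6.57, 7.81 and 7.94 in the wild type and 7.60, 8.35 and 8.45 in the knock-in samples. The difference was 0.69 ± 0.43 (SE). On this probe the knock-in sample was the higher one in each block. The wild type sample of arrays 1 and 2 was the highest of all on the first probe and the lowest of all on the second. With the mean of both probes the difference was -0.092. The 2 probes thus give no common direction for Ndufb10, and its call with the blocks as a term holds for the first probe.

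**Figure D3:**
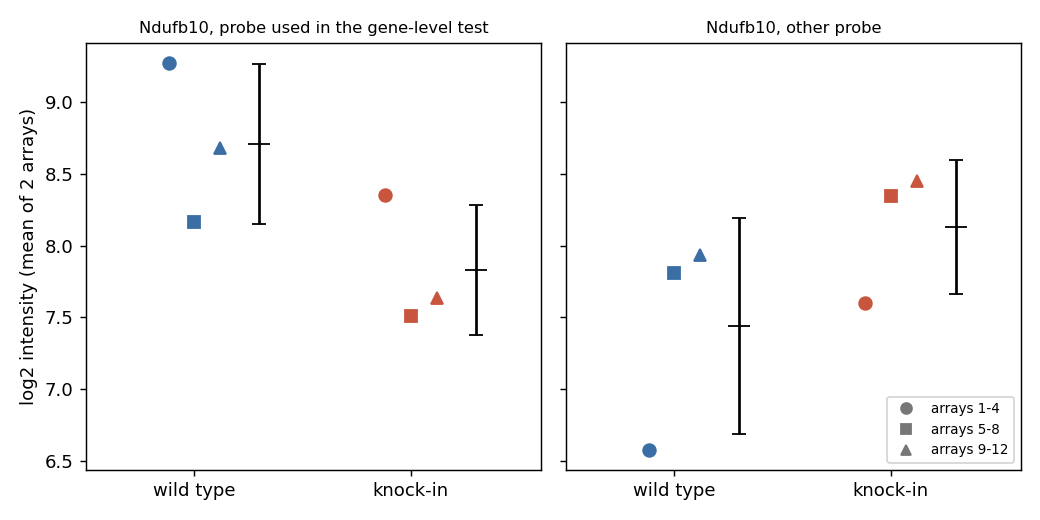
Log2 intensity of the 2 Ndufb10 probes in 3 wild type (blue) and 3 knock-in (red) samples, with the mean and SD of each group in black and point shape for the block of 4 arrays. The first probe was lower and the second higher in the knock-in sample of every block.

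Ndufb8, a commonly used marker of assembled complex I, was 11.11, 11.21 and 11.36 in the wild type and 10.99, 10.96 and 11.11 in the knock-in samples. The knock-in samples lay below the wild type samples by a narrow margin, and the difference was -0.21 (-0.46 to 0.043, limma adjusted p = 0.689). Ndufb11, an X-linked subunit, was the only member that was higher with quantile normalization, at 6.44, 6.34 and 6.75 in the wild type and 6.74, 6.64 and 7.06 in the knock-in samples. Its difference was 0.31 ± 0.16 (SE, limma adjusted p = 0.716), or 0.30, 0.31 and 0.31 within the blocks, and its second probe was above the limit on 4 arrays only. By mean deposited intensity Ndufb11 was the dimmest member tested, at 38.8 units. Its difference ran from 0.30 to 0.56 over the 8 scalings. The differences of Ndufb5, Ndufb6 and Ndufb9 lay between -0.015 and -0.0070, and those of Ndufb2, Ndufb3, Ndufb4 and Ndufb7 between -0.22 and -0.055. Of the 11 members with more than 1 probe above the limit, the probes of 2, Ndufb10 and Ndufs4, differed in sign.

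**Figure D4:**
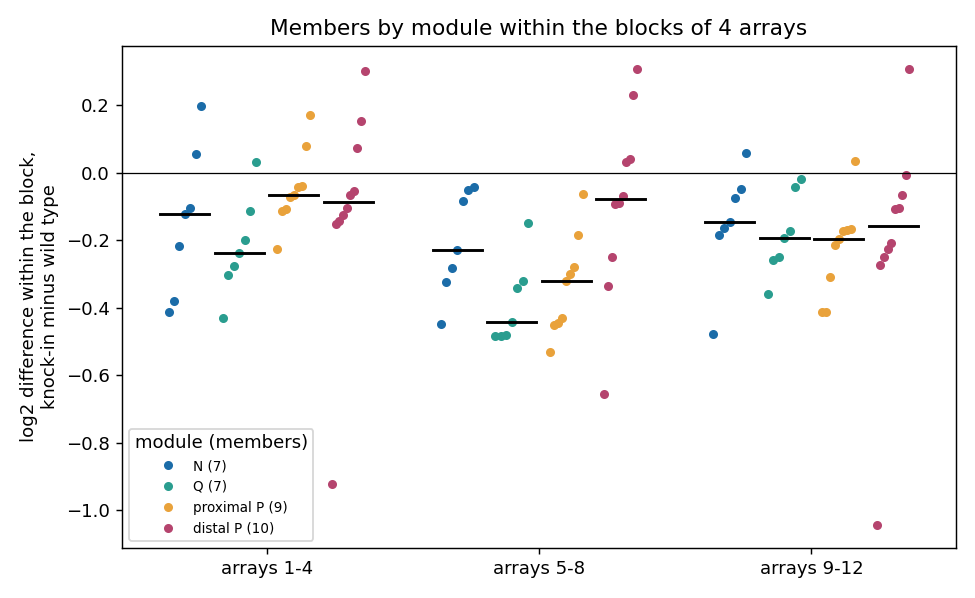
Log2 difference of each member within each block of 4 arrays (knock-in minus wild type), coloured by module, with the median of each module as a black bar. The Q module bar lies at or below that of the other modules in the first and second block, and the distal P module holds both the lowest (Ndufb10) and the highest (Ndufb11) points.

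A pair of members stands outside the modules. Ndufab1, the mitochondrial acyl carrier protein, which serves in complex I and in lipoic acid and iron-sulfur cluster synthesis, differed by -0.29 ± 0.19 (SE), and its 3 other probes by -0.34, -0.23 and -0.016. Ndufa4, now counted as a subunit of complex IV, differed by -0.21 ± 0.13 (SE). Without Ndufa4 and Ndufs5-ps, 32 of 33 members were lower and the median was -0.20.

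The genes that build and accompany complex I were described in the same way, with 0 of them past the test over all genes in either direction. Of 16 measured assembly factors, 13 were lower, with a median of -0.12. The smallest p belonged to Dmac1, a factor for the distal membrane arm, at -0.29 ± 0.14 (SE, limma adjusted p = 0.684), and Ecsit, an assembly factor that also acts in Toll-like receptor signalling, at -0.19 ± 0.10 (limma adjusted p = 0.715). Of 10 genes of iron-sulfur cluster assembly, 7 were lower, and the median was -0.10. The smallest p belonged to Nfs1, the cysteine desulfurase, which was lower at -0.41 ± 0.18 (limma adjusted p = 0.638). Next came Hscb, a co-chaperone of cluster transfer, which was higher at 0.22 ± 0.12 (limma adjusted p = 0.752). Of 10 regulators of mitochondrial gene expression, 7 were lower with a median of -0.10. The leading members were higher: Gabpa, which encodes the ETS factor named above, at 0.42 ± 0.11 (limma adjusted p = 0.276) and Tfb2m, a mitochondrial transcription factor, at 0.30 ± 0.14 (limma adjusted p = 0.643). Gabpa was 6.64, 6.47 and 6.32 in the wild type and 6.895, 6.901 and 6.896 in the knock-in samples, with no overlap. Of the other factors whose letters were searched, Nrf1 differed by -0.027 (limma adjusted p = 0.999). Esrra, an estrogen-related receptor, differed by -0.12 (limma adjusted p = 0.942). Yy1 did not reach the limit on enough arrays to be tested. Of 6 mitophagy genes, 4 were lower with a median of -0.16. Bnip3l, which encodes Nix, the receptor for clearance of mitochondria from maturing red cells, differed by -0.35 ± 0.12 without overlap (limma adjusted p = 0.439), and Phb2, an inner membrane receptor, by -0.32 ± 0.15 (limma adjusted p = 0.650).

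The other respiratory complexes had a like pattern with quantile normalization. Lower were 4 of 5 genes of complex II (median -0.15), 7 of 7 of complex III (-0.24), 8 of 8 of complex IV (-0.12) and 12 of 14 of ATP synthase (-0.17), and 0 of these passed. The smallest p in each belonged to Sdhc at -0.48 ± 0.27, Uqcrc2 at -0.30 ± 0.12, Cox5b at -0.19 ± 0.10 and Atp5g2 at -0.38 ± 0.16 (SE, limma adjusted p = 0.752, 0.550, 0.720 and 0.581). Over the 8 scalings the medians ran from -0.20 to 0.049 for complex II, -0.26 to 0.029 for complex III, -0.12 to 0.14 for complex IV and -0.18 to 0.11 for ATP synthase. That of the assembly factors ran from -0.17 to 0.029. Those of iron-sulfur cluster assembly, the regulators and mitophagy ran from -0.14 to 0.085, -0.16 to 0.031 and -0.17 to 0.050. Each of these medians thus crossed 0 as that of complex I did. Against genes of their own level range, complex III lay between -0.26 and -0.19, ATP synthase between -0.17 and -0.14, complex IV between -0.15 and -0.079 and complex II between -0.14 and -0.084. The difference between complex I and these groups was not tested.

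**Figure D5:**
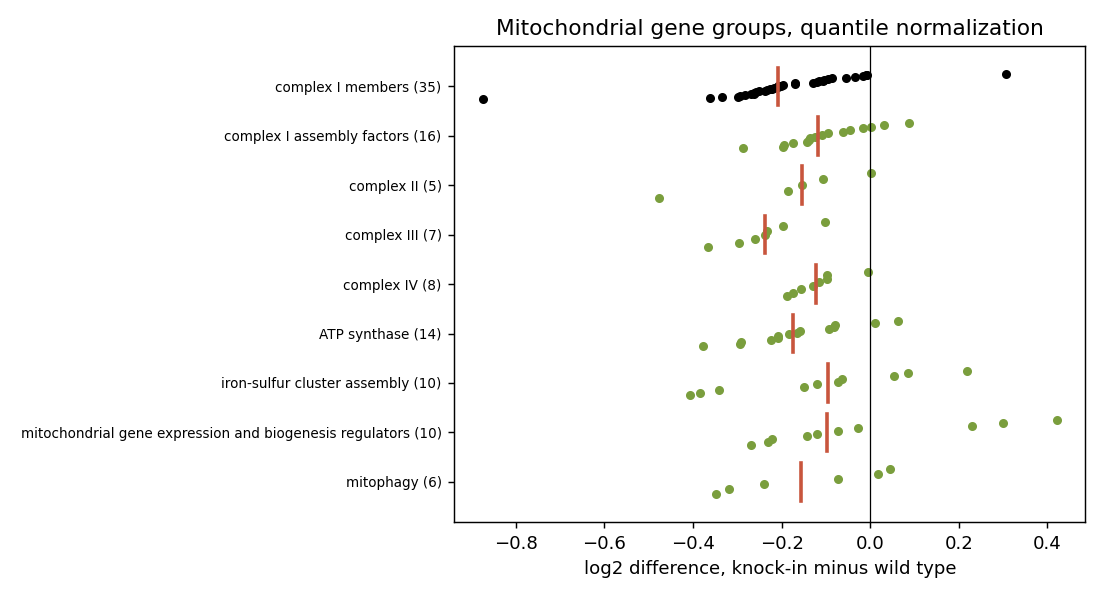
Log2 difference (knock-in minus wild type, quantile normalization) of each gene in complex I and 8 other mitochondrial groups, with the number of genes in brackets and the median as a red bar. The medians all lie below 0, and that of complex III (-0.24) is the lowest.

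The median erythroblast marker lay on the other side of 0 from complex I with quantile normalization, though not in every block. Of the 7 measured, 5 were higher in the knock-in samples, with a median of 0.24 (0.24 to 0.48 over the 8 scalings), and 0 passed. Klf1, an erythroid transcription factor, differed by 0.50 ± 0.32, and Epor, the erythropoietin receptor, by 0.47 ± 0.21 (SE, limma adjusted p = 0.798 and 0.645). Lower were Alas2, the first enzyme of erythroid heme synthesis, at -0.23 ± 0.12, and Hba-a1 at -0.16 ± 0.11 (SE, limma adjusted p = 0.705 and 0.839). For Alas2 all 3 knock-in samples lay below all 3 wild type samples. Markers of other marrow cells also differed between the samples. All 9 measured B lineage markers were lower, with a median of -1.12, and their summed level was 3165 to 5686 intensity units in the wild type and 1524 to 1778 in the knock-in samples. All 8 mast cell, basophil and eosinophil markers were lower, with a median of -0.46 and sums of 24666 to 34066 in the wild type and 16930 to 23655 in the knock-in samples. All 6 macrophage markers were lower with quantile normalization, with a median of -0.45 and sums of 1440 to 4059 against 1159 to 2601, and 4 to 6 of them over the 8 scalings. The neutrophil sums overlapped, with 140572 to 185370 against 133881 to 178370. None of these markers passed over all genes, while 3 B lineage and 2 mast cell, basophil or eosinophil markers did with the blocks as a term. Of the defining markers on the array, Pax5 and Marco did not reach the limit on the 6 arrays required. The part of these cells, and of the erythroblast markers, in the complex I values was not tested.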

How the data were processed

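RNA was isolated by Trizol and then RNeasy with DNase treatment, per the labels' protocols. The deposited intensity table used here is the one marked as not normalized, with 45281 probes on 12 arrays, and processed intensity values from the authors served as an alternative. Per the submitters' processing notes GenomeStudio was used (version not given in the sources). Between 33.05% and 37.02% of deposited intensity values are negative, so a background was subtracted at an earlier step.

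Here, intensities were corrected with limma's normexp (offset 50), quantile-normalized and taken to log2, which understates changes of dim genes. The background limit of each array was the 90th percentile of its mirrored negative values, 6.6 to 7.7 units. A gene was represented by its brightest kept probe. Adjacent arrays (centred correlations of 0.852 to 0.941, against -0.40 to 0.19 for others of a genotype) were averaged. The test across genes was that of limma 3.58.1 (R 4.3.3), with Benjamini-Hochberg adjustment over 9388 genes and a threshold of 0.05. The procedure was run on simulated data with independent noise for each gene and changes larger than the median member difference. That run does not bear on differences as small as those of most members. Described with every sample's value are the core subunits and, per module, the 2 accessory subunits with the smallest p; of other lists, the 2 genes with the smallest p. Others named by value, among them Ndufb11, were chosen after their values were seen. Members and lists were chosen with earlier results of these data known. Figures used matplotlib 3.10.9.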

Additional observations from a re-analysis of the deposited data

How the results depend on the processing

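The count of members past the test was 0 with the reported processing, 1 when blocks of 4 arrays entered the model and 3 with 12 arrays as 12 samples (8.57% of members, against 9.16% of all genes); it was 0 under every other alternative and with each sample left out. The median difference was -0.037 under 75th percentile scaling (22 members lower), 0.079 under median scaling (5 lower) and 0.097 with no scaling, chosen after the data were seen (4 lower). Under median scaling and no scaling, in this order, the differences turned to 0.082 and 0.10 for Ndufv1, 0.28 and 0.29 for Ndufv2, 0.19 and 0.20 for Ndufs7, 0.036 and 0.054 for Ndufs8, 0.046 and 0.064 for Ndufs4, 0.066 and 0.084 for Ndufs6, 0.022 and 0.040 for Ndufa9, 0.032 and 0.050 for Ndufa6, 0.087 and 0.10 for Ndufa13, and 0.11 and 0.13 for Ndufb8. Ndufs7 turned to 0.066 under 75th percentile scaling and 0.029 when scaled to the median of the probes tested, also chosen after the data were seen. Ndufv2 turned to 0.030 under cyclic loess, 0.16 under 75th percentile scaling, 0.12 when scaled to the median of the probes tested and 0.074 with array weights, and ran from -0.12 to 0.072 with each sample left out. The cause was not tested. Without background correction, with the authors' values, with other filters and with the other variance models, no other direction changed among the described members. With every probe by itself 48 of 51 were lower, and a second probe of Ndufb10 (0.69) and another of Ndufs4 (0.090) were higher, as was the Ndufb11 probe. With each sample left out, the median ran from -0.25 to -0.13 and the members lower from 27 to 33. Among single members, differences ran from -0.21 (without the knock-in sample of arrays 11 and 12) to -0.044 (without that of arrays 3 and 4) for Ndufs7, and from -0.35 (without arrays 11 and 12) to -0.12 (without arrays 5 and 6) for Ndufv1. That of Ndufa6 was -0.16 without arrays 5 and 6, that of Ndufs8 -0.16 without arrays 9 and 10, and those of Ndufs4 and Ndufa13 -0.14 and -0.13 without arrays 7 and 8. The genotypes share no replicate number in the labels, so the model with blocks, which pairs 1 sample of each genotype, rests on array numbers alone. With 3 samples against 3, the intervals of most single members include 0.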
